A study of Homo sapiens with 9 samples.

Results

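The collapsin response mediator proteins (CRMPs) are encoded by 5 human genes, CRMP1, DPYSL2 (CRMP2), DPYSL3 (CRMP4), DPYSL4 (CRMP3) and DPYSL5 (CRMP5). Their rows were taken by gene symbol from the count tables, and all 5 were found among 42785 genes. The libraries came from SH-SY5Y cells, a line derived from a human neuroblastoma and grown in serum-containing DMEM, with no cue and no genetic change named in the labels. RNA was purified on beads coated with a mouse antibody against DCC (DCC-IP) or a rabbit antibody against Nrp1 (Nrp1-IP), or taken from the whole lysate (Input), with 3 libraries per group and 9 in all. DCC is a receptor for Netrin-1 and Nrp1 (Neuropilin-1) a receptor for Sema3A, and the comparison of the pulldowns asked whether each receptor carries its own set of mRNAs. The labels do not say whether the libraries of a group came from separate cultures, so p-values measure the spread between these libraries only. The study's methods state in general that experiments used independent biological replicates, without tying these libraries to cultures. No control-antibody library was analysed here, so RNA held by a receptor and RNA held by the coated beads cannot be told apart from these counts.

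CRMPs are cytosolic phosphoproteins of developing neurons, related in sequence to the enzyme dihydropyrimidinase but without its known activity. The family was found through the growth cone collapse response, in which Sema3A binds Nrp1 and its plexin-A co-receptors and kinases such as Cdk5 and GSK3β then phosphorylate CRMPs. CRMP2 binds tubulin dimers and favours axon growth, and this binding is weakened by phosphorylation. CRMP mRNAs therefore encode cytosolic effectors of the pathway that starts at Nrp1, and their levels in the 2 pulldowns and in Input are described below.

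Between 8838296 and 11055895 reads per library fell on genes. Levels are given as raw counts or as CPM, the counts of a gene relative to its library's total, scaled over the 9 libraries by edgeR's TMM method, and a library with 3 counts or fewer was taken as at or under the floor of detection (0.204 to 0.426 CPM). A CPM is a share of a library, so these values measure neither how much RNA was recovered nor how much RNA a cell held. In DCC-IP, MAP1B alone took 40.3% to 52.1% of all reads on genes, compared with 1.58% to 2.44% in the other groups. Of 10 sympathetic neuroblast markers, ISL1 and GATA3 were over the floor in every library and TH was at 0 in all 9. The summed level of these markers was 279 to 434 CPM in Input, 974 to 1306 CPM in Nrp1-IP and 1217 to 4336 CPM in DCC-IP, most of it from ISL1, and its part in the results below was not tested. Blood markers were at 0 in every library and the 7 stromal and Schwann-like markers summed to 1.09 to 6.19 CPM, with COL1A2, COL3A1, SOX10 and S100B at 0. Several genes that most cells express also had few counts here, with 0 or 1 for TUBB and 0 to 26 for FLNA, so a low count was not read as absence of an mRNA.

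The 5 genes did not share one pattern. Mean DPYSL2 levels were highest in Input and lowest in DCC-IP, and mean CRMP1 levels had the opposite order. Mean DPYSL5 levels were highest in Nrp1-IP and close to the floor in DCC-IP. DPYSL3 and DPYSL4 were close to or under the floor in most libraries. DPYSL3 reached 125 counts in Nrp1-IP replicate 3 and 142 in Input replicate 2. Groups were compared in pairs with edgeR's quasi-likelihood test over all genes that passed a filter on low counts, and a gene was called at a Benjamini-Hochberg adjusted p under 0.05. By this test, without replicate numbers in the fit, DPYSL2 fell in both pulldowns against Input, and no member was called between Nrp1-IP and DCC-IP. With replicate numbers as a block, CRMP1 was also called in DCC-IP over Input, and DPYSL5 between the receptors.

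**Figure D1:**
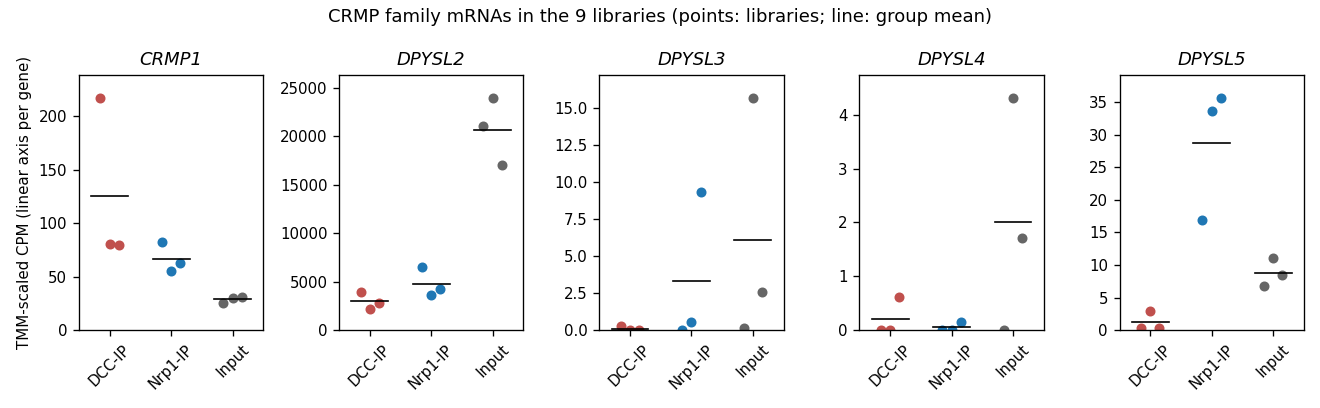
TMM-scaled CPM (linear axis, starting at 0 and set for each gene) of the 5 CRMP genes in the 9 libraries, with a point per library and a line at each group mean. DPYSL2 means were 20652 in Input, 4797 in Nrp1-IP and 2969 in DCC-IP, and CRMP1 means were 28.9, 66.9 and 126 in the same order.

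DPYSL2, whose product CRMP2 carries tubulin to the growing axon tip, had 178633, 216416 and 119609 counts in the 3 Input libraries. It had 72895, 40334 and 57065 counts in Nrp1-IP. In DCC-IP the counts were 31748, 26004 and 41309. Every Input library thus lay above every pulldown library, while the pulldowns overlapped, at 3585 to 6539 CPM in Nrp1-IP and 2222 to 3882 CPM in DCC-IP. Of all tested genes, 33.5% did not overlap between DCC-IP and Input and 32% between Nrp1-IP and Input. The means were 20652 ± 3488 CPM in Input, 4797 ± 1547 in Nrp1-IP and 2969 ± 843 in DCC-IP (SD, n = 3 each).

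Against Input, DPYSL2 fell by 2.80 on the log2 scale in DCC-IP (standard error 0.31, 95% interval -3.50 to -2.10, edgeR's quasi-likelihood test, adjusted p = 0.00513). In Nrp1-IP it fell by 2.01 (standard error 0.31, 95% interval -2.72 to -1.29, adjusted p = 0.0173 by the same test). By this fit, which left replicate numbers out, it was the only member called in either comparison. With those numbers as a block, CRMP1 was also called in DCC-IP. Without the block, 1 of 3 tested members was called for DCC-IP and 1 of 4 for Nrp1-IP. Of all tested genes, 4.98% and 4.97% were called in either direction. By direction, 3.52% of tested genes were lower and 1.46% higher in DCC-IP, and 3.03% were lower and 1.94% higher in Nrp1-IP. Both comparisons use the same 3 Input libraries. Among all tested genes, 5.95% had a lower log2 fold change than DPYSL2 in DCC-IP and 9.11% in Nrp1-IP. The DCC-IP call was lost without DCC-IP replicate 1 (change -2.88, adjusted p = 0.0766) or replicate 2 (-2.28, 0.0975). Those fits called only 0 and 1 genes in the whole table. With MAP1B removed from the table and no scaling factors the change was -1.61, again called (adjusted p = 0.0123, with a range of 2.91e-05 to 0.0975 over all alternatives). The Nrp1-IP call was lost without any single Nrp1-IP library (adjusted p from 0.0995 to 0.141) and without Input replicate 1 (0.054), with the change between -2.38 and -1.83 over all 6 fits that left out a library. In the whole table, 0, 7 and 7 genes were called without Nrp1-IP replicates 1, 2 and 3, and 77 without Input replicate 1. Between the receptors, DPYSL2 differed by 0.66 on the log2 scale, Nrp1-IP over DCC-IP, and did not pass (standard error 0.31, 95% interval -0.03 to 1.35, adjusted p = 0.304).

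The size of the difference between the receptors depended on how libraries were scaled, since MAP1B took such a large share of DCC-IP. The median log2 fold change of all tested genes was -0.27 for Nrp1-IP over DCC-IP, and -0.998 with MAP1B removed and no scaling factors. Under that setting the DPYSL2 value was -0.0235. Measured from the median gene, DPYSL2 was at 0.93 as reported and between 0.89 and 0.97 over the 4 scalings tried. The same measure gave -2.96 for DCC-IP over Input (-2.97 to -2.87 over those scalings) and -2.07 for Nrp1-IP over Input under each of them.

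CRMP1, which encodes another family member that acts in Sema3A signalling, showed the reverse order. It had 215, 273 and 220 counts in Input. The Nrp1-IP libraries had 917, 627 and 840 counts. The DCC-IP libraries had 1776, 948 and 1173 counts. Scaled, the lowest pulldown library held 55.7 CPM and the highest Input library 31.2 CPM, so neither pulldown overlapped Input. The means were 28.9 ± 3.16 CPM in Input, 66.9 ± 13.7 in Nrp1-IP and 126 ± 79.0 in DCC-IP (SD, n = 3 each). Replicate 1 of DCC-IP stood at 217 CPM, against 81.0 and 79.6 CPM in the other two.

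The log2 fold change of CRMP1 over Input was 2.07 in DCC-IP (standard error 0.54, 95% interval 0.84 to 3.29) and 1.32 in Nrp1-IP (standard error 0.35, 95% interval 0.50 to 2.14). Neither passed the threshold by edgeR's quasi-likelihood test without replicate numbers in the fit, with adjusted p of 0.0635 and 0.0742. DCC-IP and Input libraries of the same replicate number deviated together, and with that number as a block CRMP1 rose in DCC-IP by 1.996 on the log2 scale (adjusted p = 0.032, with a range of 0.0123 to 0.243 over all alternatives). The same block raised the number of genes called between DCC-IP and Input from 310 to 715. CRMP1 also passed in DCC-IP with no scaling factors, with MAP1B in or out, by DESeq2, with a minimum of 10 counts per library and in one fit of all 9 libraries (adjusted p from 0.0123 to 0.0424). It did not pass with RLE scaling (0.103) or no filter (0.0964). Libraries that did not overlap are common in these comparisons, at 33.5% of tested genes for DCC-IP and Input and 32% for Nrp1-IP and Input. With each library left out in turn, CRMP1 stayed between 1.65 and 2.76 in DCC-IP and between 1.12 and 1.44 in Nrp1-IP, and passed in none of these fits. Some of them called only 0 to 7 genes in the whole table. In Nrp1-IP, CRMP1 passed with no scaling factors, with MAP1B in or out, by DESeq2 and with a minimum of 10 counts per library (adjusted p from 0.0152 to 0.042). It did not pass with RLE scaling, no filter, one fit of all 9 libraries or the block (0.0666 to 0.308). Between the receptors, Nrp1-IP over DCC-IP, CRMP1 had a log2 value of -0.90 (standard error 0.48, 95% interval -1.97 to 0.17, adjusted p = 0.382 by that test), and without DCC-IP replicate 1 it was -0.16.

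**Figure D2:**
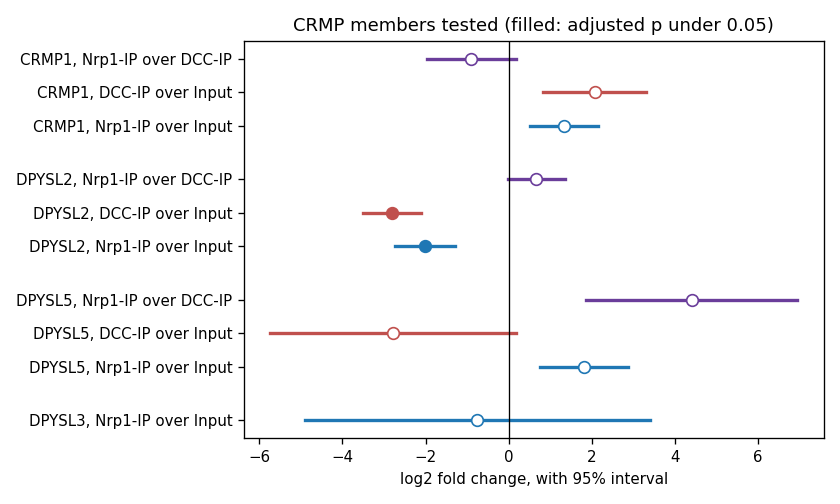
Log2 fold change (x axis) of each CRMP member tested, with its 95% interval from edgeR's quasi-likelihood fit, for the 3 comparisons. Filled points had an adjusted p under 0.05, which held for DPYSL2 over Input in both pulldowns (-2.80 and -2.01), while the CRMP1 and DPYSL5 points are open. The fits drawn left replicate numbers out, and with them as a block CRMP1 passed in DCC-IP over Input and DPYSL5 between the receptors.

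CRMP1 shares its locus with another gene. In RefSeq genes of GRCh38.p14, EVC overlaps CRMP1 and lies on the opposite strand. The strand setting of the counting is not given in the sources used here, so reads of the 2 genes may not be fully separated where they overlap. EVC, a component of the primary cilium that acts in Hedgehog signalling, had 225, 121 and 162 counts in DCC-IP. In Input it had 23, 27 and 30 counts, against 109, 94 and 113 in Nrp1-IP. There were 98.9 to 150 EVC counts per 1000 CRMP1 counts across the 9 libraries, with the groups overlapping. The part of this overlap in the CRMP1 values was not tested.

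DPYSL5, whose product CRMP5 is found mainly in the developing nervous system, had the largest log2 fold change between the receptors of the 3 members tested. Its counts were 189, 379 and 477 in Nrp1-IP. In DCC-IP it had 3, 35 and 4 counts, so replicate 1 was at the floor and replicate 3 just over it. Input gave 58, 100 and 60 counts. Scaled, the means were 28.8 ± 10.3 CPM in Nrp1-IP, 8.80 ± 2.13 in Input and 1.21 ± 1.54 in DCC-IP (SD, n = 3 each). No group overlapped another: the lowest Nrp1-IP library held 17.0 CPM, Input ranged from 6.83 to 11.1 CPM and the highest DCC-IP library held 2.99 CPM. Of all tested genes, 26% to 33.5% did not overlap in these comparisons.

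Set against DCC-IP, the Nrp1-IP level of DPYSL5 had a log2 fold change of 4.40 (standard error 1.13, 95% interval 1.85 to 6.94, unadjusted p = 0.0034). It did not pass by edgeR's quasi-likelihood test (adjusted p = 0.0709), so that 0 of the 3 members tested were called in this comparison, where 3.65% of all tested genes were called and 26% did not overlap between the groups. At an unadjusted p under 0.05 there was 1 member, DPYSL5, and DESeq2 also called 1, again DPYSL5 (log2 fold change 4.68, adjusted p = 3.81e-05, with a range of 3.81e-05 to 0.299 over all alternatives). Over all 6439 tested genes, 1118 had an unadjusted p under 0.05 and DESeq2 called 705. Within edgeR, DPYSL5 passed with no filter (4.71, adjusted p = 0.000706) and in one fit of all 9 libraries (4.67, adjusted p = 0.026). It also passed with the replicate number as a block (5.21, adjusted p = 0.0154). Over all tested genes these fits called 484 of 15766, 278 of 7628 and 369 of 6439. Without DCC-IP replicate 2, the library with 35 counts, the log2 fold change was 6.53 and passed by edgeR's test (adjusted p = 0.0184), and over the other fits that left out a library the adjusted p was 0.0798 to 0.299. Of all tested genes, 98.9% had a lower log2 fold change than DPYSL5 in this comparison. Over Input, the values were 1.81 in Nrp1-IP (standard error 0.46, 95% interval 0.75 to 2.88, adjusted p = 0.0666) and -2.78 in DCC-IP (standard error 1.30, 95% interval -5.73 to 0.17, adjusted p = 0.254), and neither passed. The Nrp1-IP value passed with no scaling factors, with MAP1B in (0.0404) or out (0.0401). It also passed by DESeq2 (0.0112) and with a minimum of 10 counts per library (0.0381). It did not pass with RLE scaling, no filter, one fit of all 9 libraries or the block (0.0511 to 0.474), nor with any library left out. With only 3 and 4 counts in 2 of its libraries, the DCC-IP level is known only roughly.

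DPYSL3 and DPYSL4 were close to or under the floor in most libraries. DPYSL3, whose product CRMP4 binds actin and microtubules, had 2, 0 and 0 counts in DCC-IP. The Nrp1-IP libraries had 0, 6 and 125 counts and those of Input 1, 142 and 18. Single libraries thus held nearly all of its counts, Nrp1-IP replicate 3 and Input replicate 2. It passed the filter for Nrp1-IP over Input alone, with a log2 fold change of -0.75 (standard error 1.79, 95% interval -4.89 to 3.39, adjusted p = 0.861 by edgeR's quasi-likelihood test). Without Input replicate 2 the value was 1.43, and without Nrp1-IP replicate 3 it was -4.26. DPYSL4, the gene for CRMP3, had 0, 0 and 9 counts in DCC-IP. The other groups had 0, 0 and 2 counts in Nrp1-IP and 0, 39 and 12 in Input. It passed the filter in no comparison. No difference between groups was shown for either gene, DPYSL3 varying widely between libraries of 1 group and DPYSL4 being too low to test.

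**Figure D3:**
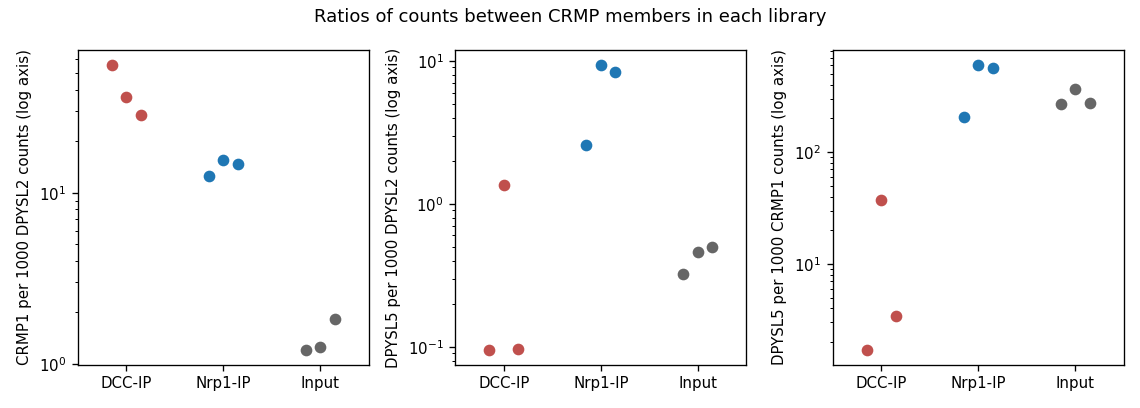
Ratios of the counts of 2 CRMP members within each library (log axes), with a point per library. CRMP1 per 1000 DPYSL2 counts ran from 1.20 to 1.84 in Input, 12.6 to 15.5 in Nrp1-IP and 28.4 to 55.9 in DCC-IP, with no overlap between groups.

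The levels of CRMP1, DPYSL2 and DPYSL5 can also be set against each other as ratios of counts in the same library, which need no scaling between libraries and in which the length of each mRNA cancels when groups are compared. These ratios were chosen after the levels were seen, so they are given as a description, with no test. Per 1000 DPYSL2 counts, CRMP1 had 55.9, 36.5 and 28.4 counts in DCC-IP. The Nrp1-IP libraries had 12.6, 15.5 and 14.7, and the Input libraries 1.20, 1.26 and 1.84. All 3 groups were apart, and on the geometric mean the ratio was 27.5-fold higher in DCC-IP than in Input, 10.1-fold higher in Nrp1-IP than in Input and 2.72-fold lower in Nrp1-IP than in DCC-IP.

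DPYSL5 had 2.59, 9.40 and 8.36 counts per 1000 DPYSL2 counts in Nrp1-IP, against 0.325, 0.462 and 0.502 in Input. The DCC-IP libraries gave 0.0945, 1.35 and 0.0968, and so lay on both sides of Input. The ratio was 13.9-fold higher in Nrp1-IP than in Input and 25.5-fold higher than in DCC-IP, on the geometric mean. This depended on single libraries, since the log2 difference of 4.67 between the receptors was 5.94 without DCC-IP replicate 2, 4.03 without DCC-IP replicate 1 and 4.04 without DCC-IP replicate 3. Nrp1-IP replicate 1 also weighed, and without it the log2 difference was 5.26 against DCC-IP and 4.39 against Input. Per 1000 CRMP1 counts, DPYSL5 had 270, 366 and 273 counts in Input and 206, 604 and 568 in Nrp1-IP, 2 overlapping ranges. In DCC-IP the same ratio was 1.69, 36.9 and 3.41, below every library of the other groups. The geometric mean in Nrp1-IP was 1.38-fold that in Input, with 1 Nrp1-IP library below and 2 above every Input library.

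As a share of the summed counts of the 5 genes, not adjusted for length, DPYSL2 made up 99.8% ± 0.0599 in Input, 97.9% ± 0.556 in Nrp1-IP and 96.1% ± 1.28 in DCC-IP (SD, n = 3 each). CRMP1 made up 0.143% ± 0.035, 1.40% ± 0.143 and 3.86% ± 1.30 in the same order. The family as a whole held 1.36% to 2.16% of the gene counts of an Input library, 0.411% to 0.762% in Nrp1-IP and 0.244% to 0.41% in DCC-IP. With MAP1B left out of the totals, the DCC-IP range was 0.51% to 0.687% and overlapped Nrp1-IP at 0.421% to 0.781%, while Input was still apart at 1.38% to 2.21%.

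**Figure D4:**
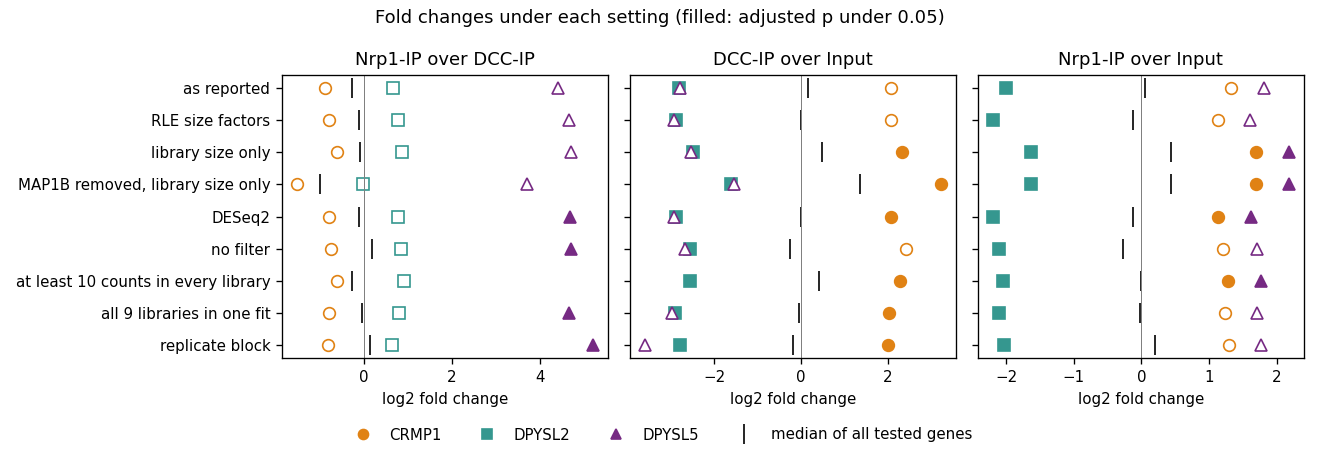
Log2 fold change (x axis) of CRMP1, DPYSL2 and DPYSL5 in the 3 comparisons under the reported fit and 8 alternatives (rows), with the median of all tested genes as a black bar and filled symbols for an adjusted p under 0.05. DPYSL2 over Input is filled in every row for both pulldowns, and the DPYSL2 value between the receptors meets 0 only with MAP1B removed (-0.0235), where the median gene also shifts to -0.998.

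Other genes of the semaphorin and CRMP pathway were taken from 7 lists of 56 genes by role. Most were too low to test, with 20 genes tested between the receptors, 22 for DCC-IP over Input and 24 for Nrp1-IP over Input. Between the receptors, 2 were called higher in Nrp1-IP (background 2.56%) and 0 lower, with 0 lower also at an unadjusted p under 0.05 and by DESeq2. Over all 6439 genes tested there, 1118 had that p and 705 were called by DESeq2, in either direction. For DCC-IP over Input, 2 were called lower (background 3.52%) and 0 higher. At an unadjusted p under 0.05 there were 4 lower and 0 higher, and the same numbers by DESeq2. Over all 6223 genes tested there, 1367 had that p and 1032 were called by DESeq2, in either direction. No list gene was called lower without DCC-IP replicate 1 or without replicate 2, fits that called 0 and 1 genes in the whole table. With MAP1B removed, 1 was called higher and 1 lower. For Nrp1-IP over Input, 1 was called lower (background 3.03%) and 0 higher. At an unadjusted p under 0.05 there were 3 lower and 2 higher, DESeq2 called 3 lower and 1 higher, and edgeR with no filter called 5 lower and 1 higher. Over all tested genes the numbers in either direction were 1405 of 6501, 966 of 6501 and 882 of 16456. The median log2 fold change of the tested list genes was 0.13 between the receptors, against -0.27 for all tested genes, -0.06 against 0.16 for DCC-IP over Input and 0.00016 against 0.0583 for Nrp1-IP over Input.

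Among the ligands and receptors, SEMA3A and SEMA3C were the only class 3 semaphorins tested, and neither was called. NRP1, the mRNA of the precipitated receptor itself, had 198, 320 and 234 counts in Input. The Nrp1-IP libraries had 55, 83 and 36 counts and the DCC-IP libraries 0, 26 and 23, all below Input, where 32% and 33.5% of tested genes did not overlap Input. It fell by 2.49 on the log2 scale in Nrp1-IP over Input (standard error 0.52, edgeR's quasi-likelihood test, adjusted p = 0.0395), and its DCC-IP value of -4.39 against Input did not pass (standard error 1.35, adjusted p = 0.098). The Nrp1-IP call was lost in one fit of all 9 libraries (adjusted p = 0.31), without any single Nrp1-IP library (0.142 to 0.188) and without Input replicate 1 (0.0753) or 2 (0.0878), at log2 values of -2.87 to -2.18 over these fits. Without an Nrp1-IP library, only 0 to 7 genes were called in the whole table. The plexin PLXNA4 was tested in all 3 comparisons and PLXNA2 for DCC-IP over Input, and none of these passed, with adjusted p of 0.598 or more. PLXNA1 and PLXNA3 were too low to test.

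Among the kinases, CDK5 had 0 or 1 count in all libraries but Input replicate 3, which had 27, and was not tested. GSK3B, which phosphorylates CRMP2 after a priming step by Cdk5, had 82, 8 and 13 counts in DCC-IP and 0 to 11 in the other libraries. Against Input, its DCC-IP level gave a log2 fold change of 2.65 (standard error 1.80, adjusted p = 0.455 by that test).

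The called genes between the receptors were a phosphatase and an actin regulator. PPP1CB, a catalytic subunit of protein phosphatase 1, had 162072, 162349 and 95433 counts in Input. The Nrp1-IP libraries had 138104, 133014 and 150342 counts and the DCC-IP libraries 29727, 35996 and 37703. It rose by 1.89 on the log2 scale in Nrp1-IP over DCC-IP (standard error 0.25, edgeR's quasi-likelihood test, adjusted p = 0.00396) and fell by 2.45 in DCC-IP over Input (standard error 0.29, adjusted p = 0.0052). ENAH, an Ena/VASP protein that extends actin filaments, had 21604, 21689 and 13938 counts in Input. Counts were 24678, 24399 and 24612 in Nrp1-IP and 4831, 9518 and 7699 in DCC-IP. Its changes were 1.62 (standard error 0.33, adjusted p = 0.0286) and -1.81 (standard error 0.36, adjusted p = 0.0274) in the same comparisons. Between the receptors, PPP1CB was called under every alternative, at 1.20 with MAP1B removed. ENAH lost that call with MAP1B removed (0.91, adjusted p = 0.105) and without any single Nrp1-IP library (adjusted p from 0.0813 to 0.174). Against Input, PPP1CB was at -1.23 with MAP1B removed, again called, and lost its call without DCC-IP replicate 1 (adjusted p = 0.0766) or 2 (0.118). Those fits called only 0 and 1 genes in the whole table. ENAH lost its call against Input without any single library but Input replicate 3 (adjusted p from 0.107 to 0.177), with no filter (0.0823) and with MAP1B removed, where the value was -0.58 (adjusted p = 0.289). For PPP1CB and ENAH alike, each DCC-IP library lay below every library of the other groups. Of all tested genes, 26% did not overlap between the receptors and 33.5% between DCC-IP and Input. Of DPYSL2 binding partners, TUBB3, a neuronal β-tubulin, had values of -2.86 in DCC-IP and -3.11 in Nrp1-IP over Input, and neither passed (adjusted p = 0.136 and 0.051). The enzymes of pyrimidine breakdown, DPYS, DPYD and UPB1, were not tested, and DPYS, the gene of the enzyme the CRMPs resemble, was at 0 in every library.

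**Figure D5:**
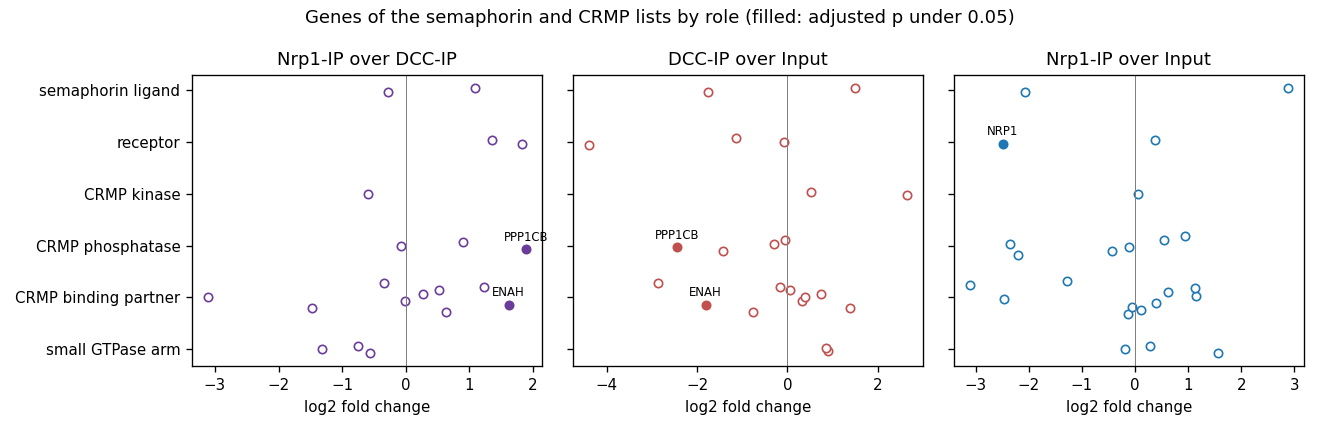
Log2 fold change (x axis) of the tested genes of 6 of the 7 pathway lists, by role (rows), in the 3 comparisons, with filled and named points for an adjusted p under 0.05. PPP1CB and ENAH are filled for Nrp1-IP over DCC-IP (1.89 and 1.62) and DCC-IP over Input (-2.45 and -1.81), and NRP1 for Nrp1-IP over Input (-2.49), with open points on both sides of 0.

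The mRNAs whose levels were most like those of each member were found by Pearson's r of log2 CPM over the 9 libraries, among 7627 other genes. These values describe 9 points in 3 groups that share their scaling. These genes were chosen for their likeness in the same libraries, so no test of them is given. For CRMP1 the nearest gene was the overlapping EVC (r = 0.987), followed by ZNF211 (0.983) and RIF1 (0.98), a regulator of replication timing. Mean RIF1 levels were 29.3 CPM in Input, 116 CPM in Nrp1-IP and 318 CPM in DCC-IP, the order seen for CRMP1.

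For DPYSL2 the nearest were EIF5A (0.975), ZNF451 (0.973) and EIF5AL1 (0.972). EIF5A encodes a translation factor and EIF5AL1 is a close copy of it, so their counts may be split between them. Mean EIF5A levels were 1038 CPM in Input, 167 CPM in Nrp1-IP and 90.1 CPM in DCC-IP. For DPYSL5 the nearest were WIPI1 (0.981), ARSG (0.979) and PIGT (0.975). WIPI1 and ARSG overlap each other in RefSeq on opposite strands, so reads of this pair also may not be fully separated, which was not tested. PIGT, a subunit of the enzyme that attaches GPI anchors, had mean levels of 136 CPM in Input, 399 CPM in Nrp1-IP and 45.4 CPM in DCC-IP. The genes nearest to DPYSL3, TMEM9, SLC7A5 and LAPTM4B, had r of 0.962 to 0.971 and group means of at most 3.85 CPM. DPYSL4 was too low for this comparison.

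Among the members themselves, CRMP1 and DPYSL2 had an r of -0.76 over the 9 libraries, CRMP1 and DPYSL5 of -0.53 and DPYSL2 and DPYSL5 of 0.31.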

How the data were processed

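RNA from DCC-IP, Nrp1-IP and Input was sequenced by the authors after PCR-based cDNA amplification developed for single cells. Per the labels' processing notes and the paper's methods, reads were aligned with HISAT2 2.1.0 and the deposited values are raw read counts per gene symbol from HTSeq 0.11.0; the labels name build hg19, and the annotation and strand setting are not given in the sources used here. HTSeq's 5 summary lines were left out, among them reads on no feature (48.7% to 55.8% of a library's reads). No molecular identifiers are described, so the floor of 3 counts covers counting error only.

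The 5 members and the pathway lists were chosen with earlier results of these data known. Named genes are the members, called list genes with NRP1, PLXNA1 to PLXNA4, CDK5 and GSK3B, and the 3 genes nearest to each member in pattern; MAP1B, ISL1, TUBB, FLNA, TUBB3 and the marker genes are given where they bear on a result. Each pair of groups was fitted over all genes with edgeR 4.0.16 (R 4.3.3): filterByExpr with minimum count 10, TMM, glmQLFit and glmQLFTest, with Benjamini-Hochberg adjustment. The standard error is the log2 fold change divided by the square root of F, and intervals are 95%. On counts simulated with a much smaller spread than these data had, the median fold change returned was close to its true size. When every gene was given the same spread, near the common dispersion fitted here (0.579 to 1.05), almost none of the changed genes passed the threshold. Genes with many counts could vary less, with an SD of 4.86% to 17.4% of the group mean for PPP1CB, and the simulation does not describe such genes. Alternatives were RLE factors, library size only, MAP1B removed with library size only, DESeq2 1.42.0, testing without a filter, a minimum of 10 counts per library, one fit of all 9 libraries, the replicate block and each library left out. Gene overlaps came from RefSeq (GRCh38.p14), used for names and strands only.

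Replicate numbers come from the sample titles. Deviations of same-numbered DCC-IP and Input libraries from their group means correlated at 0.117, 0.188 and 0.418 over 7628 genes, so these numbers were taken as pairs, although Input replicate 1 correlated more with DCC-IP replicate 2 (0.14) than with replicate 1. The reported fits left these pairs out, and only the replicate block used them. Replicates of a group differed by more than sampling noise (chi-square at least 48.6 times its degrees of freedom). No sequences are shown, since none of those at hand bears on these counts. Python 3.11.15 with matplotlib 3.10.9 drew the figures.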

Additional observations from a re-analysis of the deposited data

How the results depend on the processing

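DPYSL2 was called lower than Input in both pulldowns under all 8 alternatives that kept every library, and no alternative reversed it. A reversed direction was seen for DPYSL2 in Nrp1-IP over DCC-IP (-0.0235, adjusted p = 0.969, with MAP1B removed and library size only, where the range over alternatives was 0.063 to 0.969) and for DPYSL3 in Nrp1-IP over Input (1.43 without Input replicate 2, -4.26 without Nrp1-IP replicate 3), and neither was called. The causes of the differences below were not tested.

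CRMP members called between Nrp1-IP and DCC-IP went from 0 to 1, DPYSL5, with DESeq2, with no filter, with all 9 libraries in one fit and with the replicate block (0 to 1 with a library left out). For DCC-IP over Input, library size only, MAP1B removed, DESeq2, a minimum of 10 counts per library, one fit of all 9 libraries and the block each gave 2, DPYSL2 and CRMP1, in place of 1 (0 to 1 with a library left out). For Nrp1-IP over Input, library size only, MAP1B removed, DESeq2 and at least 10 counts in every library each gave 3, with CRMP1 and DPYSL5 added, in place of 1 (0 to 1 with a library left out).

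All genes called between the receptors, 235 of 6439 tested as reported, were 443 of 6343 with MAP1B removed and 705 of 6439 with DESeq2. They were 484 of 15766 with no filter, 459 of 3077 with at least 10 counts in every library, and 74 to 346 with a library left out. For DCC-IP over Input, 310 of 6223 became 696 of 5964 with MAP1B removed and 1032 of 6223 with DESeq2. It became 805 of 2634 with at least 10 counts, 780 of 7628 with all 9 libraries, and 0 to 250 with a library left out. For Nrp1-IP over Input, 323 of 6501 became 518 of 6501 with library size only, 520 of 6488 with MAP1B removed and 966 of 6501 with DESeq2. It became 882 of 16456 with no filter, 632 of 3460 with at least 10 counts, 125 of 7628 with all 9 libraries, and 0 to 441 with a library left out. In the 2 fits with 0 calls by edgeR's quasi-likelihood test, without DCC-IP replicate 1 and without Nrp1-IP replicate 1, 1554 and 1061 genes had an unadjusted p under 0.05.

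With the replicate block, 369 genes were called between the receptors, 715 for DCC-IP over Input and 556 for Nrp1-IP over Input. Same-numbered libraries correlated at 0.0993 to 0.364 between the receptors, each best with its own number, and at -0.00218 to 0.361 between Nrp1-IP and Input. Those numbers were not taken as pairs, because a lower bound was set on every same-numbered correlation and the values 0.0993 and -0.00218 missed it. DCC-IP and Input met that bound, with 0.117 as their lowest value. Their pairing was not the cleaner by rank, since DCC-IP replicate 2 and Input replicate 1 correlated at 0.14. For the receptors the margin was small, and the choice decides whether DPYSL5 is called. With the block, DPYSL5 between the receptors was 5.21 (adjusted p = 0.0154), and no other member's call changed beyond that of CRMP1 in DCC-IP over Input. The 54 ratio values with a library left out kept their direction.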
